A study of Mus musculus with 10 samples.

Results

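Glycolysis and HIF-linked glucose use were followed through 34 genes taken by symbol from a list of glucose transporters, glycolytic enzymes, lactate and pyruvate handling genes, and HIF-1 with its targets. All 34 symbols have a row among the 24411 genes of the count tables. The tables hold RNA-seq read counts of mouse microglia, the macrophages of the brain, and the study asked how an inhibitor of the Polycomb histone methyltransferase EZH2 acts on their inflammatory genes. The groups were primary microglia with EPZ-6438 and lipopolysaccharide (LPS, n = 3), primary microglia with EPZ-6438 only (n = 3), BV2 cells with EPZ-6438 and LPS (n = 2) and BV2 cells with EPZ-6438 only (n = 2). EPZ-6438, the EZH2 inhibitor, was given at 10 uM to the cells of all 10 libraries, and LPS, the bacterial ligand of Toll-like receptor 4, at 10 ng/ml, for 4 h. Cells without the inhibitor are not analysed here, so every value below describes cells that had received it.

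The primary cells came from 3-day-old ICR mice, with 12 brains to a pool, and were shaken off mixed glial cultures and replated. BV2 is an immortalised mouse microglial line. The mixed cultures grew in DMEM/F12 and BV2 cells in high-glucose DMEM with less serum, per the labels' protocols, so that cell origin and culture conditions cannot be told apart in any comparison of the cells. The protocols do not state the medium that the replated primary microglia were in during treatment. The labels do not tie the replicates to separate cultures or animals, and the p-values therefore measure the spread between these libraries, which may be technical. The libraries held between 2.75 and 3.68 M gene counts each. The ribosomal RNA precursor Rn45s took 43.7% of gene counts in LPS-treated primary replicate 1 and 15.7% and 16.0% in the other LPS-treated primary libraries, against 40.9% to 51.7% in primary microglia without LPS, so replicate 1 stood apart within its group. All 10 microglial marker genes had reads in every group. Their summed level, in CPM (counts per M of the scaled library size), was 1957 to 2229 in LPS-treated and 1854 to 2148 in untreated primary microglia. In BV2 cells it was 1363 to 1515 CPM with LPS and 1367 to 1422 CPM without. Within that sum, edgeR called Csf1r (log2 fold change -1.40) and P2ry12 (-1.45) lower with LPS in primary microglia, at adjusted p under 0.05. It called C1qb (0.58) and Spi1 (1.50) higher there, and Spi1 (0.76) in BV2 cells. In primary microglia P2ry12 averaged 2.07 CPM with LPS and 5.68 CPM without, and Tmem119 1.90 and 2.51 CPM. Astrocyte markers, 7 genes, summed to 850.5 to 1524 CPM in LPS-treated and 830.5 to 1377 CPM in untreated primary microglia, but 6 or all 7 of them were at 0 in the BV2 groups. Within that overlapping sum, edgeR called Aqp4 higher with LPS in primary microglia (0.93, adjusted p = 8.46e-04) and Gja1 lower (-0.50, adjusted p = 0.0139). Oligodendrocyte lineage markers, 9 genes, summed to 133 to 165 CPM in LPS-treated and 174 to 182 CPM in untreated primary microglia, without overlap, and had 6 of 9 at 0 in each BV2 group. Lymphocyte markers, 5 genes, were also lower without overlap, at 4.31 to 6.52 CPM in LPS-treated and 7.36 to 10.6 CPM in untreated primary microglia. Most of that sum was Cd4, at a mean of 4.90 and 8.59 CPM. In BV2 cells, summed endothelial and mural markers, 6 genes, were lower with LPS without overlap (87.3 to 98.4 CPM with LPS and 100.5 to 128 CPM without). So were 5 monocyte and border macrophage markers (8.73 to 12.7 and 17.5 to 19.5 CPM). Most of the first sum was Kdr, at a mean of 91.6 CPM with LPS and 114 CPM without (edgeR, adjusted p = 0.490). Most of the second was Mrc1, at 10.6 and 18.3 CPM (adjusted p = 0.171). The part of these markers in the changes with LPS was not tested. In the bulk libraries of primary microglia, fewer cells of a type and less RNA per cell cannot be told apart.

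Glucose enters cells through GLUT transporters of the Slc2a family, is trapped by hexokinase and is cut to pyruvate by the glycolytic enzymes, with phosphofructokinase as the main control step. Lactate dehydrogenase turns pyruvate into lactate, which leaves through monocarboxylate transporters, whereas the mitochondrial pyruvate carrier and pyruvate dehydrogenase send pyruvate to respiration. HIF-1, a dimer of Hif1a and Arnt, drives many of these genes, and prolyl hydroxylases of the Egln family mark its alpha subunit for destruction through Vhl. Macrophages and microglia are known for raising glycolysis when LPS activates them.

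In primary microglia, LPS raised the RNA of 13 of the 33 members that could be tested and lowered that of 2, at an adjusted p under 0.05. The rises were spread over glucose import (Slc2a1, Slc2a6), the early steps (Hk3, Pfkl, Pfkp, Pfkfb3), the middle of the pathway (Aldoa, Tpi1, Gapdh, Pgk1), lactate formation and export (Ldha, Slc16a3) and Hif1a. That is 39.4% of the members called higher and 6.06% lower, against 21.4% and 17.8% of all 10664 genes tested. The members' median log2 fold change was 0.26, against -0.03 over all genes tested. In BV2 cells LPS raised 3 of 31 tested members, Slc2a1, Slc2a6 and Hif1a, where 3.69% of all 9321 tested genes were called higher and 1.51% lower. In BV2 cells 0 members were called lower by edgeR or by DESeq2, and 1, Pfkfb4, was lower at an unadjusted p under 0.05. The members' median log2 fold change there was 0.01, against -0.01 over all genes tested. The LPS-treated and untreated libraries of primary microglia did not overlap for the 13 members that rose and for Pfkm and Vegfa, which were lower, where this held for 26.6% (higher) and 22.4% (lower) of all genes. In BV2 cells, with 2 libraries a group, it held for 6 members higher and 10 lower, against 17.1% and 24.9% of all genes. Eno1 failed the filter on low counts in both cell types, and Slc2a3 and Ldhb also failed it in BV2 cells.

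**Figure D1:**
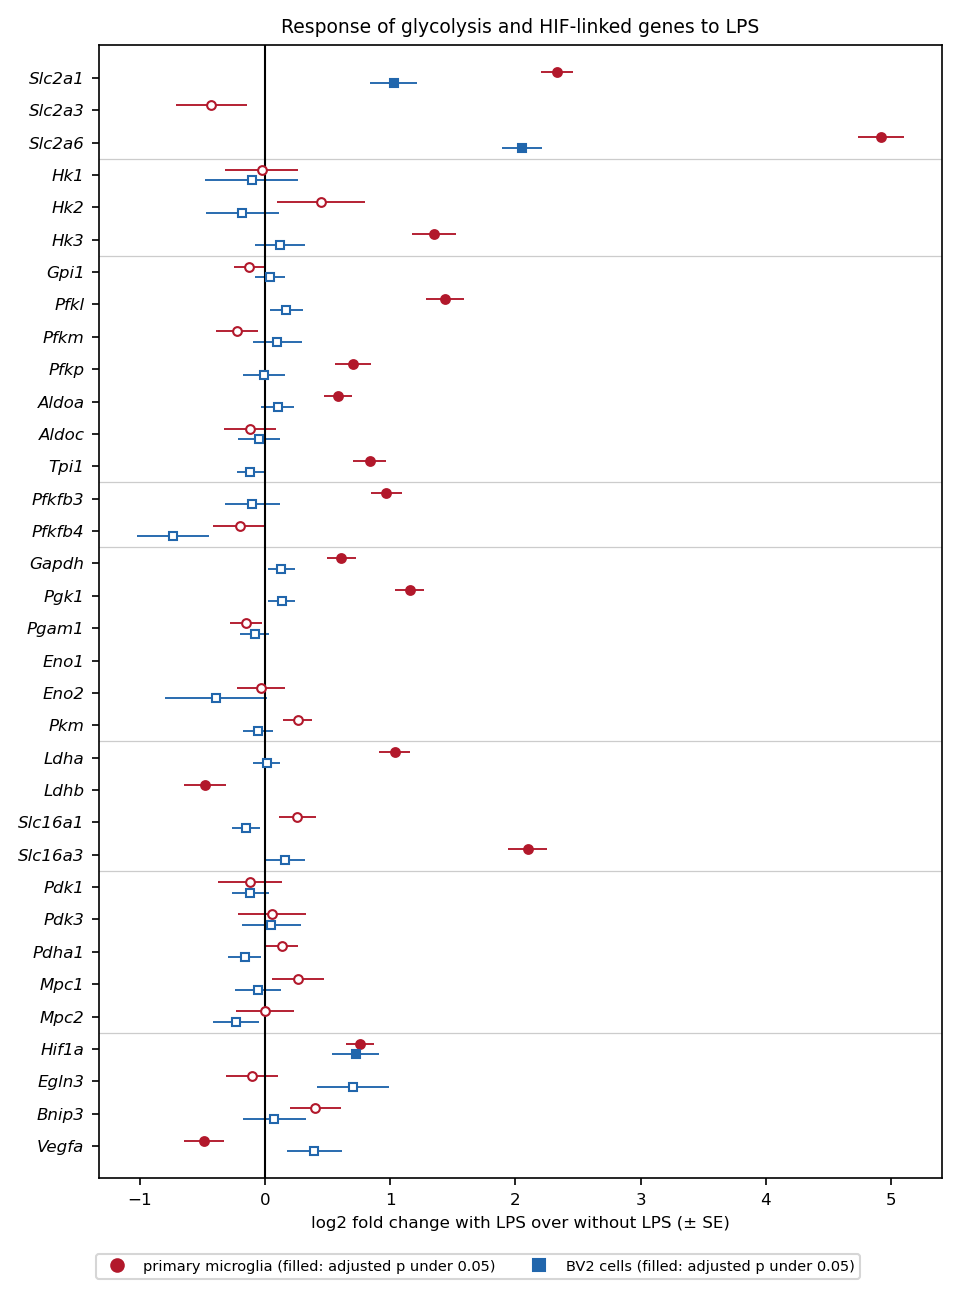
Log2 fold change with LPS over without LPS (± SE, edgeR) for each member, in order of role, in primary microglia (circles, 3 against 3 libraries) and BV2 cells (squares, 2 against 2), with filled symbols at an adjusted p under 0.05. Primary microglia show 13 filled circles to the right of 0 and 2 to the left, and BV2 cells show 3 filled squares, all to the right.

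Among the members, glucose transporters held the largest changes with LPS in primary microglia. Slc2a6 encodes GLUT6, a transporter found largely on internal membranes, and lies at chr2:27021363-27027998 on the minus strand (mm10, GENCODE M21). It had 228, 289 and 243 CPM in LPS-treated primary microglia, against 7.49, 6.13 and 10.9 CPM in primary microglia without LPS. In BV2 cells it had 132 and 121 CPM with LPS, against 33.7 and 28.4 CPM without. No library without LPS reached any library with LPS of the same cells. The group means differed 31.0-fold in primary microglia (log2 fold change 4.92 ± 0.18 SE, adjusted p = 4.08e-14) and 4.06-fold in BV2 cells (2.05 ± 0.16, adjusted p = 4.47e-06). Slc2a1, which encodes the basal glucose importer GLUT1 at chr4:119108711-119137983 on the plus strand, had 136, 142 and 133 CPM in LPS-treated primary microglia, against 25.5, 29.0 and 26.4 CPM in those without. In BV2 cells Slc2a1 had 106 and 74.4 CPM with LPS, against 49.3 and 40.6 CPM without. Here too the groups did not overlap, with log2 fold changes of 2.33 ± 0.13 (adjusted p = 2.29e-11) in primary microglia and 1.03 ± 0.19 (adjusted p = 0.00542) in BV2 cells. The neuronal high-affinity transporter gene Slc2a3 (GLUT3) had 6.66, 10.8 and 5.95 CPM in LPS-treated primary microglia, against 11.6, 11.4 and 8.45 CPM in those without, with overlapping groups and a log2 fold change of -0.43 ± 0.28 that did not pass the test (adjusted p = 0.246). Slc2a3 had 0 counts in all 4 BV2 libraries, which allows up to 3 counts over a group.

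Slc2a1 and Slc2a6 were the members that LPS raised at least 2-fold (a log2 fold change of at least 1) in both cell types, and their promoter windows are shown for that reason. A rise of that size was called for 10.3% of all tested genes in primary microglia and 2.8% in BV2 cells. The windows of Hif1a, raised in both cells, and Slc16a3, called in primary microglia alone, were added after their values had been seen. Each runs 5' to 3' on the gene's strand and ends at the base before a RefSeq start of the gene (GRCm38.p6, the mm10 assembly), except that of Slc2a1, which is cut earlier because GENCODE M21 starts the first exon upstream of that point. Capitals mark the HIF core, ACGTG or GCGTG read on either strand.
Slc2a1, chr4:119108495-119108725, plus strand: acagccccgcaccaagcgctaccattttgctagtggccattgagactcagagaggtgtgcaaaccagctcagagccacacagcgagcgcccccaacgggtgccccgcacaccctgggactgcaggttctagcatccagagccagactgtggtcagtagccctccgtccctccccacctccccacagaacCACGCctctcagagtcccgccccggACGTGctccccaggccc
Slc2a6, chr2:27027999-27028248, minus strand: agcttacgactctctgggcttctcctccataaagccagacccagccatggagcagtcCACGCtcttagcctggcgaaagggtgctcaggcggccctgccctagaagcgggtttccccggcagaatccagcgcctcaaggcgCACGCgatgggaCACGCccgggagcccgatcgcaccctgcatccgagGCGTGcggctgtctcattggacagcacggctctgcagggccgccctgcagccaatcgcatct
Hif1a, chr12:73907617-73907866, plus strand: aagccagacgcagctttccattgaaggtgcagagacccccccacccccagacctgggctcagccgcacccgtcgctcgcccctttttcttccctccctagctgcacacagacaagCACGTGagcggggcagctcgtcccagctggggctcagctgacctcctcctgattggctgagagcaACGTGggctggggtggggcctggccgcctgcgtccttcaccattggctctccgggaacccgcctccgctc
Slc16a3, chr11:120948817-120949066, plus strand: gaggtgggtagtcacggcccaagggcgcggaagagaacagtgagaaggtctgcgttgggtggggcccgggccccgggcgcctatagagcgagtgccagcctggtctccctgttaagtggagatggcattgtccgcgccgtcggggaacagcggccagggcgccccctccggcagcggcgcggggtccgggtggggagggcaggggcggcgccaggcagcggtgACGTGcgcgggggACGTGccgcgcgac
Counted back from the RefSeq start, the cores lie at positions -61 to -57 and -36 to -32 in Slc2a1. Slc2a6 holds 4, at -193 to -189, -109 to -105, -97 to -93 and -62 to -58. Slc16a3 holds 2, at -27 to -23 and -14 to -10, within 30 bases of the start. In Hif1a, matches on the 2 strands overlap in CACGTG at -135 to -130, and another lies at -70 to -66. The last 15 printed bases of Slc2a1 and the last 14 of Slc16a3 belong to a first exon in GENCODE M21, the Slc2a6 window to no exon, and the Hif1a window to an intron of a longer Hif1a transcript and of the antisense gene Gm15283.

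Matches to the HIF core were common among promoters. A gene with several RefSeq starts was counted once, if the 250 bases before any of them held a core. So counted, 30 of 33 members with a window held at least 1 core (90.9%), against 62.9% of 8195 genes tested in primary microglia with a window and 41.5% of all 27025 genes. Counted by window, 38 of the members' 48 windows held a core (79.2%), against 38.6% of all 32851 windows. The core was present in 12 of 13 members that LPS raised in primary microglia, in 15 of 17 that were not called, in both that LPS lowered and in Eno1, which was not tested. The core holds a CG pair. Taking for each gene its window with the most CG pairs, the median number was 16 over members, 18 over tested genes and 6 over all genes. The kappaB consensus, the motif read by NF-kB, was found in 4 of 33 members (12.1%), against 11.1% of the tested genes, and in none of the 4 windows shown. Slc2a3 has no window in the table used.

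Of the 3 hexokinases, which phosphorylate glucose, Hk3 was called with LPS in primary microglia and 0 were called in BV2 cells by edgeR, DESeq2 or an unadjusted p under 0.05. Over all tested genes, edgeR called 21.4% higher and 17.8% lower in primary microglia, and 3.69% and 1.51% in BV2 cells. Hk3, the hexokinase of myeloid cells, had 103, 70.5 and 70.0 CPM in LPS-treated primary microglia, against 37.1, 30.7 and 26.7 CPM in those without (log2 fold change 1.35 ± 0.18, adjusted p = 9.12e-06), and the groups did not overlap. In BV2 cells it had 77.5 and 49.6 CPM with LPS, against 61.4 and 57.5 CPM without, and the groups overlapped (0.12 ± 0.20, adjusted p = 0.879). Hk2, the inducible mitochondria-bound form and a HIF-1 target, had 81.9, 38.0 and 38.3 CPM in LPS-treated primary microglia, against 42.7, 40.5 and 30.3 CPM in those without. Its log2 fold change of 0.45 ± 0.35 did not pass (adjusted p = 0.372). Replicate 1, the LPS-treated primary library with the high Rn45s share, was the high one, and with it as the only LPS-treated primary library, a setting chosen after seeing the data, the log2 fold change was 1.14 (adjusted p = 8.17e-10). Without replicate 1 the log2 fold change was 0.01 (adjusted p = 0.967), so the difference of means rests on that library. Without the filter on low counts Hk2 also passed, at 0.48 (adjusted p = 0.0409). It passed too with the replicate number as a block and an offset for transcript length together, at 0.61 (adjusted p = 0.00160). In BV2 cells Hk2 had 8.39 and 12.4 CPM with LPS, against 10.9 and 13.5 CPM without (-0.18 ± 0.29, adjusted p = 0.876). Hk1, the housekeeping form of brain, had 20.0, 9.25 and 9.92 CPM in LPS-treated primary microglia, against 11.6, 15.9 and 11.3 CPM in those without, and replicate 1 was again the high library of its group. BV2 cells had 5.71 and 7.04 CPM of Hk1 with LPS, against 4.99 and 9.25 CPM without. Neither contrast passed for Hk1 (adjusted p = 0.950 in primary microglia and 0.954 in BV2 cells).

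In upper glycolysis, from glucose 6-phosphate to the trioses, LPS raised 4 of 7 members in primary microglia, where 21.4% of all tested genes rose. In BV2 cells edgeR called 0 of 7, with 0 at an unadjusted p under 0.05 and 0 by DESeq2. There edgeR called 3.69% of all tested genes higher and 1.51% lower. Pfkl, the liver-type phosphofructokinase, moved most. It had 129.7, 201 and 155 CPM in LPS-treated primary microglia, against 55.8, 57.6 and 64.7 CPM in those without (log2 fold change 1.44 ± 0.15, adjusted p = 4.70e-07). In BV2 cells it had 205 and 170.2 CPM with LPS, against 168 and 173 CPM without (0.17 ± 0.13, adjusted p = 0.676). The LPS-treated primary libraries overlapped the LPS-treated BV2 libraries in CPM, as the plot of levels by library shows. Pfkp, the platelet type, ranged from 69.7 to 97.9 CPM in LPS-treated primary microglia, against 48.6 to 57.3 CPM in those without (0.70 ± 0.14, adjusted p = 6.54e-04), and from 53.2 to 65.5 CPM in LPS-treated against 55.5 to 66.1 CPM in untreated BV2 cells. With primary replicate 1 as the only LPS-treated library, Pfkp gave 0.41 (adjusted p = 0.0613). The muscle-type enzyme gene Pfkm had 21.2 to 25.2 CPM in LPS-treated primary microglia, against 26.7 to 27.7 CPM in those without (-0.23 ± 0.17, adjusted p = 0.313), and although the groups did not overlap, the change did not pass. Aldoa, the main aldolase, which splits fructose 1,6-bisphosphate, averaged 903 ± 86.2 CPM (SD, n = 3) in LPS-treated primary microglia and 596 ± 57.6 CPM (n = 3) in those without (0.59 ± 0.11, adjusted p = 3.26e-04). Tpi1, triose phosphate isomerase, averaged 240.0 ± 35.8 CPM with LPS and 133 ± 19.0 CPM without in primary microglia (0.84 ± 0.13, adjusted p = 5.47e-05). Gpi1, the isomerase of glucose 6-phosphate, and Aldoc, the brain aldolase, had log2 fold changes of -0.13 ± 0.12 and -0.12 ± 0.21 in primary microglia, and neither passed. In BV2 cells the 7 members lay between -0.12 and 0.17.

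Pfkfb3 and Pfkfb4 make fructose 2,6-bisphosphate, the activator of phosphofructokinase. Pfkfb3, the inducible form, had 107, 97.0 and 103 CPM in LPS-treated primary microglia, against 53.6, 52.7 and 49.3 CPM in those without, a 1.97-fold difference of means with no overlap (log2 fold change 0.97 ± 0.12, adjusted p = 2.95e-06). In BV2 cells it had 18.5 and 18.3 CPM with LPS, against 21.5 and 18.8 CPM without (-0.10 ± 0.22, adjusted p = 0.911). Pfkfb4 had 14.1, 16.3 and 17.0 CPM in LPS-treated primary microglia, against 17.2, 14.7 and 22.2 CPM in those without (-0.20 ± 0.21, adjusted p = 0.481). BV2 cells had 7.72 and 9.86 CPM of Pfkfb4 with LPS, against 12.8 and 17.5 CPM without, and although the LPS-treated libraries were the lower ones, the change did not pass (-0.73 ± 0.28, adjusted p = 0.233).

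In lower glycolysis, where ATP and NADH are gained, LPS raised 2 of the 5 members tested in primary microglia. Of all tested genes, 21.4% rose there. In BV2 cells edgeR called 0 of 5, with 0 at an unadjusted p under 0.05 and 0 by DESeq2. There edgeR called 3.69% of all tested genes higher and 1.51% lower. Pgk1, phosphoglycerate kinase, had 231, 272 and 253 CPM in LPS-treated primary microglia, against 112, 108 and 117 CPM in those without (log2 fold change 1.16 ± 0.11, adjusted p = 1.09e-07). In BV2 cells Pgk1 had 683 and 737 CPM with LPS, against 655 and 671 CPM without (0.13 ± 0.11, adjusted p = 0.690). Gapdh, which is often used as a reference gene, had 451, 528 and 500.1 CPM in LPS-treated primary microglia, against 339.8, 269.8 and 350.5 CPM in those without, so that its groups did not overlap (0.61 ± 0.12, adjusted p = 4.01e-04). BV2 cells had 1751 and 1558 CPM of Gapdh with LPS, against 1624 and 1472 CPM without, and these groups overlapped (0.13 ± 0.11, adjusted p = 0.700). Pkm, pyruvate kinase of non-liver tissues, averaged 940.1 ± 126 CPM with LPS and 778 ± 81.3 CPM without in primary microglia and did not pass (0.26 ± 0.12, adjusted p = 0.0903). It passed without LPS-treated replicate 1, at 0.36 (adjusted p = 0.00369), and without untreated replicate 3, at 0.34 (adjusted p = 0.0406). Pgam1, phosphoglycerate mutase, and Eno2, the neuronal enolase, had log2 fold changes of -0.15 ± 0.13 and -0.03 ± 0.19 in primary microglia and of -0.08 ± 0.12 and -0.39 ± 0.41 in BV2 cells, and none of these passed. With an offset for transcript length, Pgam1 was called lower in primary microglia, at -0.37 (adjusted p = 0.0260).

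Counts of several of these genes are uncertain, as parts of their transcripts recur in other genes and reads matching several places were not counted. Of the 101-base stretches of the longest coding transcript, 78.0% in Gapdh, 67.0% in Pgk1, 58.8% in Eno1, 39.7% in Pgam1 and 18.7% in Mpc1 recur exactly in transcripts of other genes. The share was 9.52% or less in each other member. Eno1, the common enolase, had 0 counts in all 6 primary libraries and 0 or 1 in each BV2 library. Eno1b, which shares 58.3% of these stretches of Eno1, averaged 50.8 ± 6.77 CPM in LPS-treated primary microglia and 54.3 ± 6.91 CPM in those without, and had 0 counts in BV2 cells. The part of shared stretches and of the counting annotation, which is not named, in the Eno1 counts was not tested. No statement on the enolase step is drawn from Eno1.

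At the lactate end of the pathway, Ldha and Slc16a3 were called higher with LPS in primary microglia. In BV2 cells edgeR called 0 of the 3 genes tested in either direction, with 0 at an unadjusted p under 0.05 and 0 by DESeq2. Over all tested genes, edgeR called 21.4% higher and 17.8% lower in primary microglia, and 3.69% and 1.51% in BV2 cells. Slc16a3 encodes MCT4, the lactate exporter of glycolytic cells, at chr11:120948480-120960868 on the plus strand. It had 94.8, 137 and 105 CPM in LPS-treated primary microglia, against 23.2, 27.4 and 27.4 CPM in those without, 4.31-fold by the means (log2 fold change 2.10 ± 0.16, adjusted p = 2.29e-09). In BV2 cells it had 245 and 191 CPM with LPS, against 226 and 173 CPM without, with overlap (0.16 ± 0.16, adjusted p = 0.758). Ldha, the subunit that favours lactate formation, had 425, 602 and 548 CPM in LPS-treated primary microglia, against 257, 237 and 268 CPM in those without (1.04 ± 0.13, adjusted p = 1.91e-06). BV2 cells had 2460.3 and 2109.6 CPM of Ldha with LPS, against 2420.0 and 2219 CPM without (0.01 ± 0.11, adjusted p = 0.984). Ldhb, the subunit typical of cells that burn lactate, fell in primary microglia, with 38.4, 55.5 and 54.4 CPM with LPS against 74.5, 53.6 and 77.8 CPM without and overlapping groups (-0.48 ± 0.17, adjusted p = 0.0324). That call was lost with DESeq2 (-0.44, adjusted p = 0.111), without LPS-treated replicate 3 (adjusted p = 0.0554), and without untreated replicates 1 or 3 (adjusted p = 0.138 and 0.136). Slc16a1, which encodes the bidirectional carrier MCT1, gave 0.26 ± 0.15 in primary microglia (adjusted p = 0.190) and -0.15 ± 0.11 in BV2 cells (adjusted p = 0.644). Without LPS-treated primary replicate 1, Slc16a1 passed at 0.42 (adjusted p = 0.00223). It also passed with the replicate number as a block and an offset for transcript length together, at 0.37 (adjusted p = 0.00791).

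**Figure D2:**
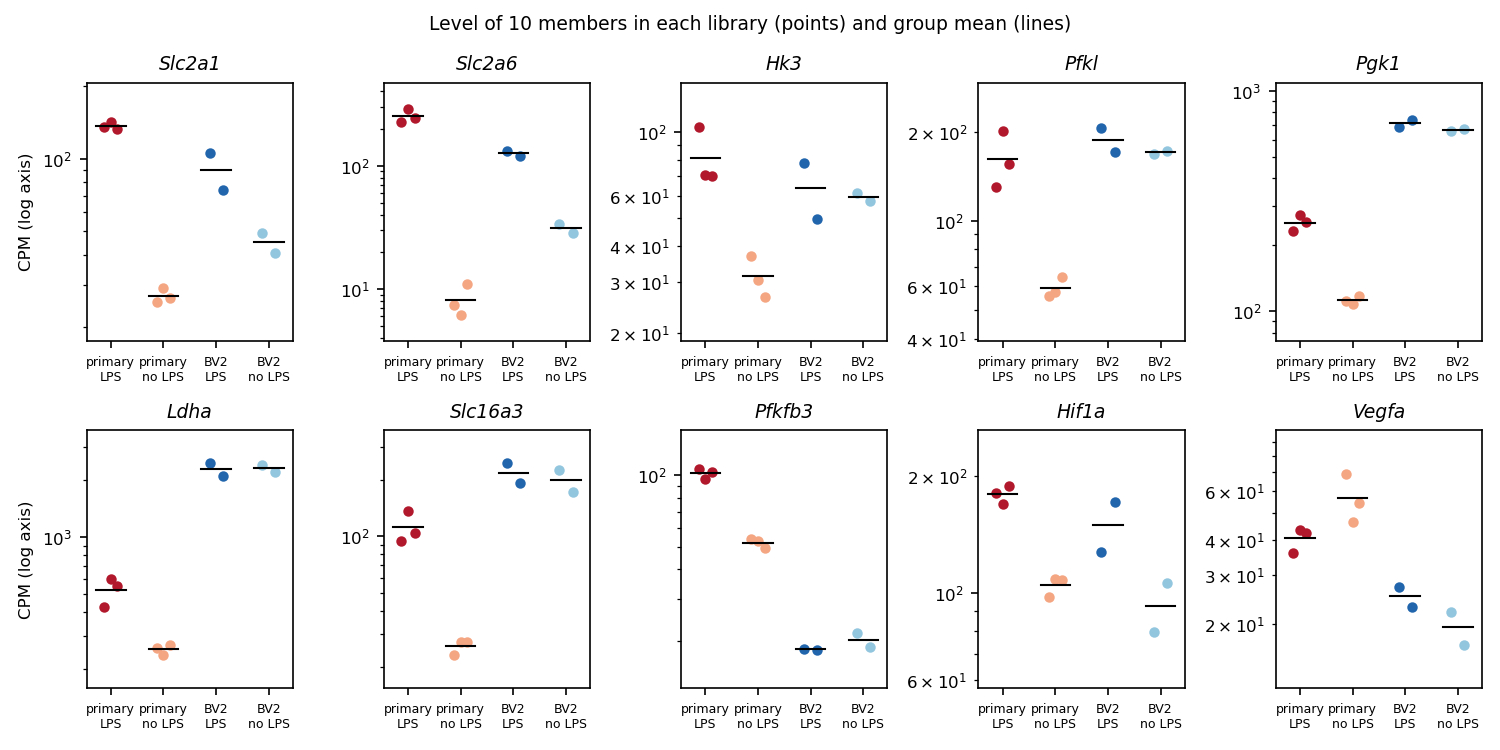
CPM (log axis) of 10 members in each library (points) with the group mean (line), for primary microglia with and without LPS and BV2 cells with and without LPS. For Slc2a1, Slc2a6 and Hif1a the LPS-treated libraries lie above the untreated ones in both cells, whereas for Hk3, Pfkl, Ldha and Slc16a3 they do so in primary microglia and overlap the untreated libraries in BV2 cells.

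Of the 5 members that govern pyruvate entry into mitochondria, 0 were called with LPS in either cell type by edgeR or DESeq2, and 0 at an unadjusted p under 0.05. Over all tested genes, edgeR called 21.4% higher and 17.8% lower in primary microglia, and 3.69% and 1.51% in BV2 cells. Pdk1 and Pdk3 encode kinases that switch off pyruvate dehydrogenase, Pdha1 its catalytic subunit, and Mpc1 and Mpc2 the pyruvate carrier. Their log2 fold changes lay between -0.12 and 0.26 in primary microglia and between -0.23 and 0.05 in BV2 cells. Pdk1 had 7.34 to 10.2 CPM in LPS-treated primary microglia, against 8.09 to 10.1 CPM in those without, and Pdha1 had 67.4 to 87.1 CPM with LPS, against 67.5 to 74.9 CPM without.

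Hif1a RNA rose in both cell types, and of the 3 targets listed with it, Egln3, Bnip3 and Vegfa, edgeR and DESeq2 called 0 higher in either, with Egln3 in BV2 cells at an unadjusted p under 0.05. Over all tested genes, edgeR called 21.4% higher and 17.8% lower in primary microglia, and 3.69% and 1.51% in BV2 cells. Hif1a (chr12:73901375-73947530, plus strand) had 181, 169 and 188 CPM in LPS-treated primary microglia, against 97.8, 109 and 108 CPM in those without (log2 fold change 0.76 ± 0.11, adjusted p = 2.45e-05). In BV2 cells it had 127 and 171 CPM with LPS, against 79.5 and 106 CPM without (0.72 ± 0.19, adjusted p = 0.0431). The groups did not overlap in either, but without untreated BV2 replicate 1 the BV2 value was 0.54 (adjusted p = 0.344). Vegfa, the angiogenic growth factor and a textbook HIF-1 target, fell in primary microglia, with 36.0, 43.4 and 42.5 CPM with LPS against 69.3, 46.6 and 54.2 CPM without (-0.49 ± 0.16, adjusted p = 0.0192). The call was lost with DESeq2 (-0.45, adjusted p = 0.103) and without untreated replicate 1, the highest library (-0.32, adjusted p = 0.180). BV2 cells had 27.2 and 23.1 CPM of Vegfa with LPS, against 22.1 and 16.9 CPM without (0.39 ± 0.22, adjusted p = 0.497). Egln3, a hypoxia-inducible HIF prolyl hydroxylase, had 52, 48 and 53 counts in the LPS-treated primary libraries, against 45, 45 and 52 counts in those without LPS (-0.10 ± 0.21, adjusted p = 0.725). In BV2 cells Egln3 had 33 and 42 counts with LPS, against 26 and 19 counts without, and although the LPS-treated libraries were the higher ones in CPM, the change did not pass (0.70 ± 0.29, adjusted p = 0.275). Bnip3, a mitophagy receptor, gave 0.40 ± 0.20 in primary microglia (adjusted p = 0.130), and 0.59 (adjusted p = 0.00437) without LPS-treated replicate 1.

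The response to LPS itself was compared between the cells by the interaction term of a fit of all 10 libraries. It was larger in primary microglia for 10 of 33 members (30.3%) and smaller for 1, where 8.65% and 3.54% of all 11626 tested genes were called in these directions. Slc2a3 and Ldhb, at 0 counts in BV2 cells, are among the 33 but have no BV2 response to compare, so the count is 10 of 31 members that passed the filter in both cells, against 11.1% of 8620 such genes. The difference of log2 fold changes was 2.91 ± 0.26 for Slc2a6 (adjusted p = 2.58e-09), 1.98 ± 0.24 for Slc16a3 (adjusted p = 1.04e-06) and 1.35 ± 0.23 for Slc2a1 (adjusted p = 9.05e-05). The 2 transporters for glucose thus rose in both cells and rose more in primary microglia. The enzymes Pfkl (1.31 ± 0.22), Hk3 (1.27 ± 0.29), Pfkfb3 (1.12 ± 0.24), Ldha (1.07 ± 0.19), Pgk1 (1.07 ± 0.17) and Tpi1 (1.00 ± 0.19) had adjusted p-values between 3.15e-05 and 0.00447. The calls of these 3 transporters and 6 enzymes held under each of the 18 alternatives run for that comparison. Pfkp was called at 0.76 ± 0.23 (adjusted p = 0.0290) but lost the call in 10 of the 18, with adjusted p up to 0.364 with LPS-treated primary replicate 1 as the only such library. Leaving out untreated BV2 replicate 1 or LPS-treated BV2 replicate 2 gave 0.200 and 0.141, any untreated primary library 0.0652 to 0.176, and LPS-treated primary replicates 2 or 3 0.0768 and 0.0747. Vegfa, the one with the smaller response in primary microglia, had -0.84 ± 0.28 (adjusted p = 0.0476) and lost the call in 8 of the 18, with adjusted p up to 0.269 when untreated BV2 replicate 2 was left out. Leaving out untreated BV2 replicate 1 or LPS-treated BV2 replicate 1 gave 0.0528 and 0.184, untreated primary replicate 1 0.155, and LPS-treated primary replicates 2 or 3 0.0512 and 0.0674. For Hif1a the difference was 0.08 ± 0.21 (adjusted p = 0.952), a p that does not show the responses to be equal. Gapdh (0.53 ± 0.18, adjusted p = 0.0536) and Aldoa (0.53 ± 0.19, adjusted p = 0.0621) did not pass. Both passed when LPS-treated primary replicate 1 (adjusted p = 0.0342 for Gapdh and 0.0328 for Aldoa) or LPS-treated BV2 replicate 1 (0.0482 and 0.0155) was left out. In simulated counts this comparison recovered 25% of 2-fold and 73% of 4-fold differences.

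Against BV2 cells, primary microglia held less RNA of many glycolytic enzymes and more of a few isoforms, with or without LPS. With LPS, 13 of 33 members were higher and 16 lower in primary microglia, against 43.1% and 30.7% of all 11626 tested genes. Without LPS, 8 were higher and 20 lower, against 41.5% and 32.5% of all tested genes. Slc2a3 and Ldhb passed the filter through the primary libraries alone, which fixed their direction. Over the 31 members that passed in both cells, 11 were higher and 16 lower with LPS, against 34.2% and 34.3% of 8620 such genes. Without LPS 6 were higher and 20 lower, against 32.2% and 37.1%. The 2 comparisons contrast separate libraries but come from 1 fit with shared spread, so their calls are not independent. The median log2 difference over these members was -0.55 with LPS and -0.92 without, against 0.03 and -0.05 over these genes. The 18 enzymes from hexokinase to lactate dehydrogenase summed to 4083 ± 433 CPM in LPS-treated primary microglia (SD, n = 3), against 11497 ± 1369.9 CPM in LPS-treated BV2 cells (n = 2). Without LPS the sum was 2767 ± 191 CPM in primary microglia (n = 3), against 11672 ± 762 CPM in BV2 cells (n = 2). Every BV2 library lay above every primary library in this sum. The sum holds Eno1 at 0 or 1 counts a library, so the common enolase is in effect missing from it. It is not adjusted for transcript length. The log2 level per doubling of length was 0.12 to 0.41 in primary and -0.34 to -0.27 in BV2 libraries. The part of length in the sum was not tested.

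Among the members that were lower in primary microglia in both states, Ldha had the largest gap of the glycolytic enzymes. The log2 difference was -2.12 ± 0.13 with LPS (adjusted p = 5.04e-14) and -3.19 ± 0.14 without (adjusted p = 3.18e-17), and the level was 525 ± 91.0 CPM in primary microglia against 2285 ± 248 CPM in BV2 cells with LPS, and 254 ± 16.1 CPM in primary microglia against 2319.6 ± 142 CPM in BV2 cells without. Pkm stood at 940.1 ± 126 CPM in LPS-treated primary microglia, against 3985 ± 686 CPM in LPS-treated BV2 cells (-2.08 ± 0.13, adjusted p = 9.71e-14). Gapdh, Pgk1, Pgam1 and Tpi1 were lower in primary microglia by log2 differences between -1.49 and -2.01 with LPS and between -1.98 and -2.67 without. Pdk1, the HIF-driven kinase of pyruvate dehydrogenase, stood at 8.59 ± 1.47 CPM in LPS-treated primary microglia, against 69.7 ± 0.706 CPM in LPS-treated BV2 cells (adjusted p = 4.50e-14), and at 9.34 ± 1.09 CPM in primary microglia against 77.3 ± 0.468 CPM in BV2 cells without LPS (-3.05 ± 0.19, adjusted p = 5.37e-14). For Slc16a1 the log2 difference was -1.93 with LPS and -2.39 without, and for Slc16a3 it was -0.95 with LPS and -2.94 without. Pdk3, Pdha1, Mpc1 and Mpc2 were lower too, between -1.24 and -0.55 with LPS and between -1.37 and -0.91 without. So were Gpi1 (-1.23 with LPS and -1.11 without) and Aldoc (-0.77 and -0.75).

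Higher in primary microglia both with and without LPS were Slc2a3, Hk1, Hk2, Pfkfb3, Eno2, Ldhb, Egln3 and Vegfa. Ldhb had 464 counts in LPS-treated and 551 in untreated primary microglia, against 0 in all 4 BV2 libraries, and was at least 108-fold higher in primary microglia with LPS and at least 143-fold without, taking 3 counts over each BV2 group as the limit. Slc2a3 was at least 17.0-fold higher with LPS and at least 21.8-fold higher without by the same measure. Eno2 was higher by 2.52 ± 0.30 with LPS (adjusted p = 2.43e-08), at 18.6 ± 0.211 CPM in primary microglia against 3.20 ± 0.254 CPM in BV2 cells. Hk2 was higher by 2.30 ± 0.40 with LPS (adjusted p = 3.42e-04) and 1.62 ± 0.40 without (adjusted p = 0.00377). Pfkfb3 was higher by 2.47 ± 0.17 with LPS (adjusted p = 2.81e-13) and 1.36 ± 0.17 without (adjusted p = 5.82e-08). Vegfa was higher by 0.70 ± 0.19 with LPS and 1.54 ± 0.20 without, and Egln3 by 0.54 ± 0.24 with LPS and 1.30 ± 0.27 without. For Hk1 the difference was 0.99 ± 0.35 with LPS and 0.86 ± 0.35 without. Astrocyte markers summed to at least 830.5 CPM in each primary library and to at most 0.312 CPM in each BV2 library, while oligodendrocyte lineage markers summed to 133 to 182 CPM in primary microglia, against 0.563 to 1.25 CPM in BV2 cells. Neuron markers summed to 75.6 to 89.3 CPM and fibroblast markers to 70.8 to 311 CPM in primary microglia, against 0 counts of either in BV2 cells. Their part in the differences of Ldhb, Slc2a3, Eno2, Hk1 and Hk2 was not tested.

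For some members the order of the cells turned with LPS. Slc2a6 was higher in primary microglia than in BV2 cells with LPS (1.01 ± 0.15, adjusted p = 9.30e-07) and lower without it (-1.91 ± 0.22, adjusted p = 1.41e-08). Slc2a1 did the same, at 0.61 ± 0.15 with LPS (adjusted p = 7.10e-04) and -0.74 ± 0.18 without (adjusted p = 4.78e-04), though without LPS-treated BV2 replicate 2 the value with LPS was 0.36 (adjusted p = 0.0565). Hk3, Pfkl and Aldoa were not called with LPS (0.35, -0.21 and -0.23) and were lower in primary microglia without it (-0.92, -1.52 and -0.76). With LPS, Hk3 was called without LPS-treated BV2 replicate 1 (0.70, adjusted p = 0.00785), Pfkl without LPS-treated primary replicate 2 (-0.39, adjusted p = 0.0218) and Aldoa without LPS-treated BV2 replicate 2 (-0.41, adjusted p = 0.0184). Hif1a was not called with LPS (0.26 ± 0.15) or without it (0.18 ± 0.15), but with LPS it was called without LPS-treated BV2 replicate 2 (0.49, adjusted p = 0.0156). Called with LPS but not without it were Pfkm, lower in primary microglia (-0.65 and -0.37), and Pfkp (0.56 and -0.19), Pfkfb4 (0.84 and 0.26) and Bnip3 (0.63 and 0.26), higher there. The calls of Pfkp, Pfkfb4 and Bnip3 were lost in some alternatives.

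Transcript length moved with the cell comparison and also differed among the primary libraries. Across genes, the log2 level changed per doubling of length by 0.32, 0.12 and 0.15 in LPS-treated and by 0.41, 0.40 and 0.32 in untreated primary libraries, and by -0.34 to -0.27 in BV2 libraries. Replicate 1 of the LPS-treated primary libraries lay within the range of the untreated ones, and the other LPS-treated libraries lay below it. With a length offset in the fit, all 13 members that rose with LPS in primary microglia were still called higher, but the log2 fold changes of Aldoa and Gapdh were 0.35 and 0.35, against 0.59 and 0.61 without the offset. Those of Tpi1, Pgk1 and Ldha were 0.60, 0.94 and 0.82, and that of Ldhb, which was lower, was -0.76, against -0.48 without the offset. In primary microglia against BV2 cells under the offset, Aldoa with LPS turned to 0.33 (adjusted p = 0.00957), and without LPS it was -0.06 (adjusted p = 0.636). The short genes Mpc1 and Mpc2 were then no longer called, at 0.35 (adjusted p = 0.110) and -0.25 (adjusted p = 0.266) with LPS and at 0.21 (adjusted p = 0.361) and -0.31 (adjusted p = 0.170) without. Ldha, Pkm, Gapdh, Pgk1, Pgam1 and Tpi1 kept their direction and call under the offset. Hk1 and Pfkp lost their calls with LPS under it (adjusted p = 0.0715 and 0.0729), and Hk1 also without LPS (adjusted p = 0.190). Pfkl became called with LPS (-0.33, adjusted p = 0.0475), and Pfkp (-0.50, adjusted p = 0.00971) and Bnip3 (0.86, adjusted p = 0.00170) without. Other calls were lost when 1 library was left out. With LPS, Egln3 gave an adjusted p of 0.203 without LPS-treated primary replicate 1 and lost its call in 12 of 17 alternatives. Without LPS-treated BV2 replicate 1, Bnip3 gave 0.186, Pfkfb4 0.0690 and Hk1 0.103. Bnip3 also gave 0.0535 and 0.0776 without LPS-treated primary replicates 2 or 3, and Hk1 0.138 without replicate 1. Without LPS-treated BV2 replicate 2, Pfkp gave 0.0679 and Mpc1 0.142, and Mpc1 gave 0.118 without LPS-treated primary replicate 3. In untreated cells, Hk1 gave 0.103 without primary replicate 2 and 0.342 without BV2 replicate 1.

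**Figure D3:**
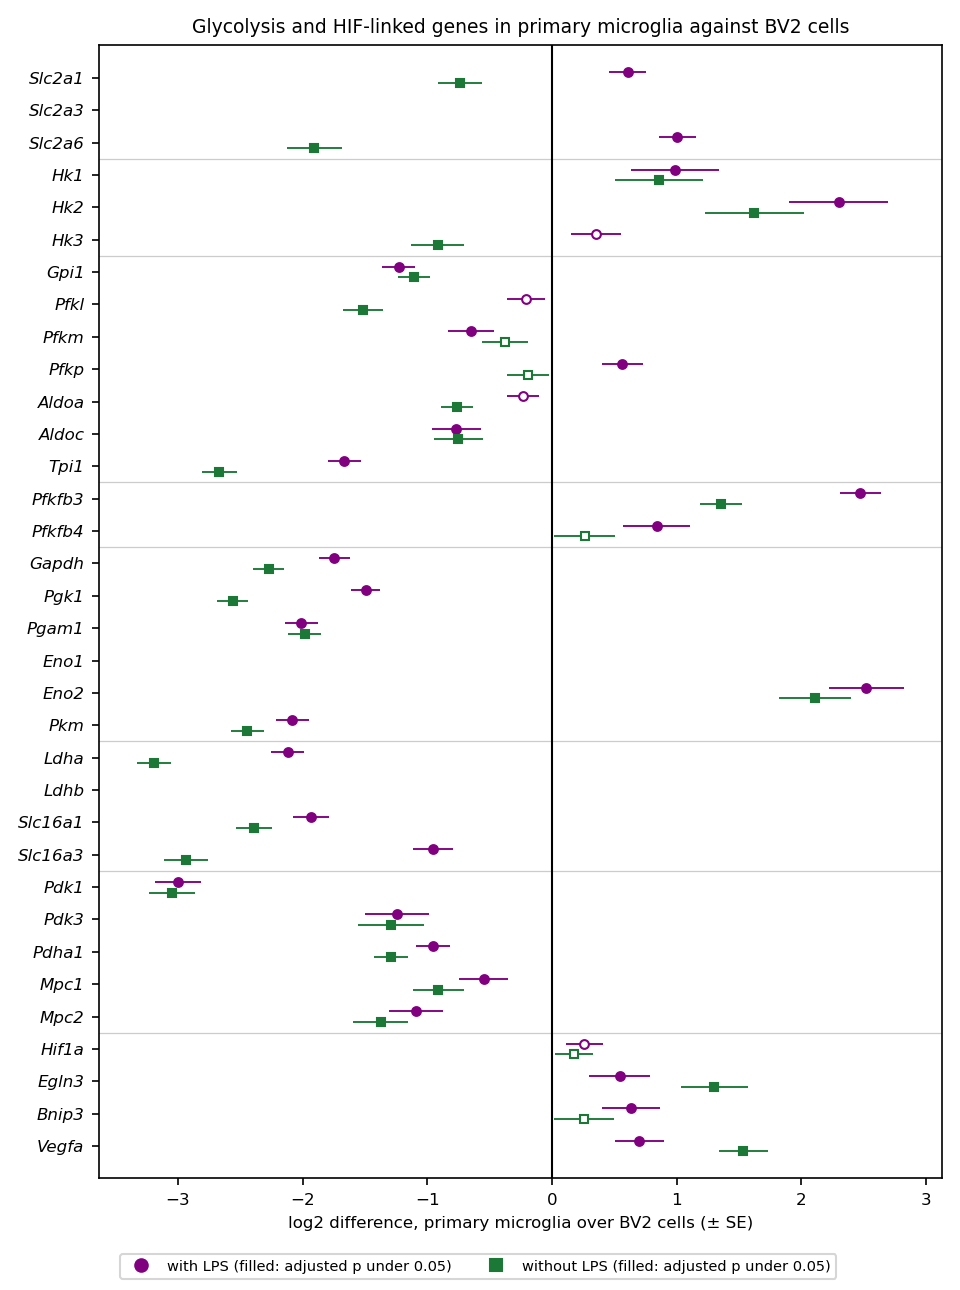
Log2 difference of primary microglia over BV2 cells (± SE, edgeR) for each member with LPS (circles) and without LPS (squares), with filled symbols at an adjusted p under 0.05. Slc2a3 and Ldhb, at 0 counts in BV2 cells, and Eno1 are not drawn. Most enzymes of lower glycolysis and lactate and pyruvate handling lie left of 0, while Hk1, Hk2, Pfkfb3, Eno2, Egln3 and Vegfa lie right of 0.

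Because levels of different genes can be set side by side only per length, the isoforms of each step were compared as CPM per kb of the longest coding transcript. These shares carry no test. Of the 3 glucose transporters, Slc2a6 made up 72.8% ± 1.72 (SD, n = 3) of the summed level in LPS-treated primary microglia and 25.8% ± 6.94 in those without, where Slc2a1 led with 56.1% ± 4.11. In BV2 cells Slc2a6 held 68.4% ± 4.07 with LPS (n = 2) and 51.3% ± 0.400 without. The summed transporter level was 162 ± 16.8 CPM per kb in LPS-treated and 14.7 ± 0.545 in untreated primary microglia, and 86.7 ± 10.4 in LPS-treated and 28.3 ± 3.61 in untreated BV2 cells. Hk3 was the leading hexokinase in each group, with 67.7% ± 4.77 of the family in LPS-treated and 49.7% ± 3.16 in untreated primary microglia, and 84.6% ± 6.78 in LPS-treated and 82.6% ± 4.52 in untreated BV2 cells. Hk2 held 24.5% ± 3.72 in LPS-treated and 34.8% ± 1.19 in untreated primary microglia, and 5.65% to 11.7% over the BV2 libraries.

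Pfkl was the leading phosphofructokinase throughout, at 59.6% ± 3.00 of the family in LPS-treated and 41.6% ± 3.25 in untreated primary microglia, and at 64.9% ± 0.334 in LPS-treated and 63.0% ± 4.09 in untreated BV2 cells. The share of Pfkm was 11.4% ± 1.50 in LPS-treated and 24.8% ± 0.485 in untreated primary microglia. Ldhb made up 11.6% ± 0.510 of lactate dehydrogenase RNA in LPS-treated and 27.1% ± 2.77 in untreated primary microglia, and none in BV2 cells. Of the monocarboxylate transporters, Slc16a3 held 52.2% ± 3.58 in LPS-treated and 23.4% ± 0.678 in untreated primary microglia, and 35.5% ± 4.60 and 30.7% ± 4.63 in BV2 cells with and without LPS. Pfkfb3 held 82.5% ± 1.85 of the Pfkfb3 and Pfkfb4 sum in LPS-treated and 67.8% ± 5.42 in untreated primary microglia. Pdk3 was the larger of the 2 kinase genes in primary microglia, with 71.4% ± 1.36 with LPS and 68.6% ± 5.06 without, whereas Pdk1 was the larger in BV2 cells, with 57.5% ± 0.495 with LPS and 60.5% ± 6.11 without. Aldoa made up at least 96.9% of aldolase RNA in every library.

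**Figure D4:**
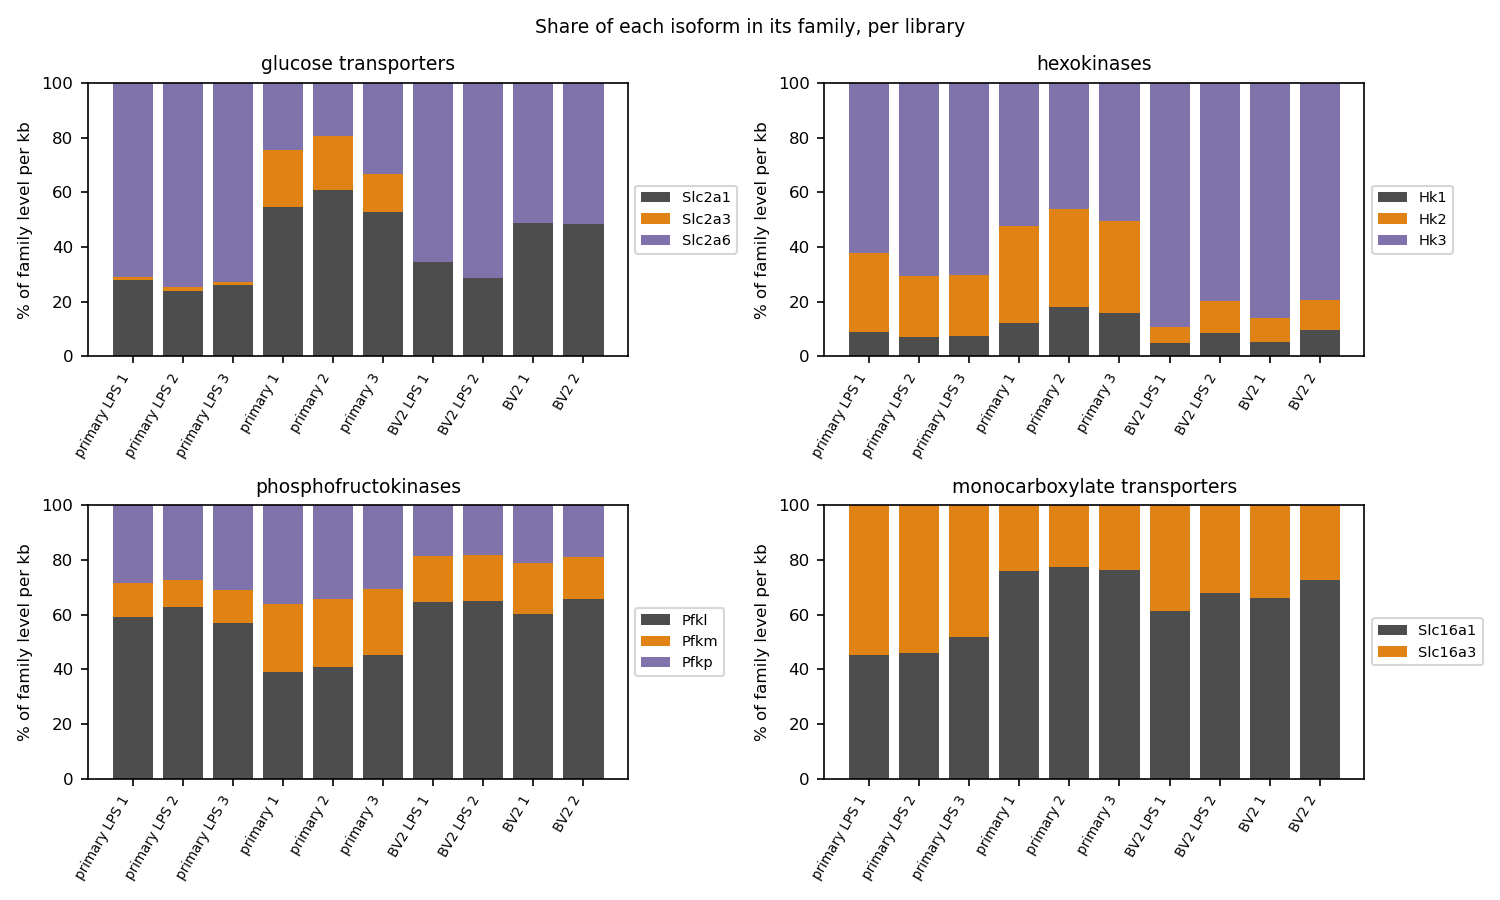
Share of each isoform in its family (percent of the summed CPM per kb) in each of the 10 libraries, with LPS-treated libraries left of untreated ones. Slc2a6, Hk3, Pfkl and Slc16a3 take larger shares in each LPS-treated primary library than in any untreated one, and Slc2a3 is missing from BV2 cells.

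Lists of other genes of glucose use were counted in the same way, over 161 genes found in the files. In primary microglia 120 could be tested, of which 28 rose (23.3%) and 31 fell (25.8%) with LPS, where 21.4% and 17.8% of all tested genes did. In BV2 cells 3 of 106 rose (Slc16a10 and Hilpda among them) and 3 fell (Eno3, Plin2 and Bhlhe41). That is 2.83% each way, against 3.69% and 1.51% of all tested genes. Among 17 HIF regulators tested in primary microglia, 6 rose and 2 fell. Those that rose at least 2-fold were Siah2, a ubiquitin ligase acting on the prolyl hydroxylases (1.41 ± 0.25), Cited2, a competitor of HIF for its coactivator (1.17 ± 0.16), and Cul2, the scaffold of the Vhl ligase (1.13 ± 0.15). Vhl itself rose by 0.37 ± 0.14 (adjusted p = 0.0385), and Arnt2 and Epas1 fell. Epas1, the gene of HIF-2 alpha, gave -0.83 ± 0.15 on the log2 scale in primary microglia (adjusted p = 1.67e-04), with 36.8, 32.2 and 27.2 CPM with LPS against 57.7, 56.8 and 54.2 CPM without. In BV2 cells Epas1 gave -0.97 ± 0.34, which did not pass (adjusted p = 0.171). Arnt, the partner of Hif1a, gave -0.16 ± 0.17 in primary microglia and 0.22 ± 0.32 in BV2 cells. The hydroxylase genes Egln1, Egln2 and Hif1an gave 0.26 ± 0.18, -0.10 ± 0.20 and -0.28 ± 0.16 in primary microglia, and none of these passed.

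Called members of the list of other HIF target genes went both ways in primary microglia, with 8 higher and 8 lower of 26 tested. That is 30.8% each way, against 21.4% and 17.8% of all tested genes. Adm, the vasodilator adrenomedullin, had 15.3, 15.9 and 12.5 CPM with LPS against 3.00, 3.27 and 1.76 CPM without (2.42 ± 0.31, adjusted p = 3.19e-06), and 0 counts in BV2 cells. Ak4, a mitochondrial adenylate kinase, rose by 1.66 ± 0.27. Lower with LPS were Selenbp1 (-2.35 ± 0.42), Mxi1, a partner of Max and antagonist of Myc (-2.04 ± 0.21), the nuclear receptor gene Rora (-1.67 ± 0.23) and the repressor gene Bhlhe41 (-1.44 ± 0.15). In BV2 cells, 2 of 23 were higher (Hilpda among them) and 2 lower (Plin2 and Bhlhe41), where 3.69% and 1.51% of all tested genes were. Bhlhe41 thus fell in both cells, with a log2 fold change in BV2 cells of -1.23 ± 0.22 (adjusted p = 0.00473).

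Of 19 glycogen genes tested in primary microglia, 1 rose and 8 fell with LPS, where 21.4% and 17.8% of all genes did. Pygl, the liver-type glycogen phosphorylase, had 25.1, 29.0 and 25.8 CPM with LPS against 70.1, 56.4 and 73.9 CPM without (-1.34 ± 0.15, adjusted p = 6.62e-07). Gyg, glycogenin, which primes glycogen, gave -1.13 ± 0.16 (adjusted p = 1.62e-05). Gbe1, the branching enzyme, was the one that rose (1.34 ± 0.22, adjusted p = 6.85e-05). In BV2 cells 0 of 14 glycogen genes were called by edgeR or DESeq2, and 1, Pgm2, was lower at an unadjusted p under 0.05. There edgeR called 3.69% of all tested genes higher and 1.51% lower. Around pyruvate dehydrogenase, 3 of 10 genes rose (Pdhb, Pdhx and Dld, which encode subunits of the complex) and 3 fell in primary microglia. Those that fell were Pdpr, a regulator of the complex's phosphatase, and the inhibitory kinase genes Pdk2 (-1.50 ± 0.38, adjusted p = 0.00412) and Pdk4 (-1.20 ± 0.21, adjusted p = 1.52e-04). Pdk4 had 8.62, 13.4 and 10.5 CPM with LPS against 25.1, 23.3 and 26.0 CPM without. The pentose phosphate list had 2 higher (Pgd and Rpe) and 2 lower (H6pd and Prps2) of 10, with Prps2, a phosphoribosyl pyrophosphate synthetase, at -1.03 ± 0.14.

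Of 10 further glucose and monocarboxylate transporter genes, 3 rose (Slc16a10, Arrdc4 and Bsg, the chaperone of lactate carriers) and 2 fell in primary microglia. Of all tested genes there, 21.4% rose and 17.8% fell. Slc16a10, an aromatic amino acid carrier of the monocarboxylate family, had 127, 113 and 119.9 CPM with LPS against 28.1, 22.9 and 20.4 CPM without (2.32 ± 0.14, adjusted p = 1.23e-10). Arrdc4, an arrestin that draws GLUT1 from the cell surface, gave 1.86 ± 0.13 (adjusted p = 1.02e-09). Slc2a8, the gene of the intracellular transporter GLUT8, fell (-1.42 ± 0.28, adjusted p = 4.26e-04), as did Slc16a6 (-1.54 ± 0.25, adjusted p = 6.73e-05). Of 6 other glycolytic isoforms tested, Minpp1 rose (1.13 ± 0.17), and Pfkfb2, a relative of Pfkfb3, and Adpgk, an ADP-dependent glucokinase, fell, with Pfkfb2 at -1.01 ± 0.18. Among 22 glucose-sensing and growth regulators, 4 rose (Max, Rheb and Prkaa1 among them) and 4 fell (Mlxip, Akt1, Prkag2 and Irs2) in primary microglia. That is 18.2% each way, close to the 21.4% and 17.8% of all tested genes. Max, the partner of Myc, rose (1.30 ± 0.15), while Prkag2, a subunit of the energy sensor AMPK (-1.78 ± 0.42), the insulin receptor substrate gene Irs2 (-1.28 ± 0.14) and Akt1 (-1.03 ± 0.13) fell. In BV2 cells 0 of 19 were called by edgeR or DESeq2, and 1, Rptor, was lower at an unadjusted p under 0.05. There edgeR called 3.69% of all tested genes higher and 1.51% lower.

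**Figure D5:**
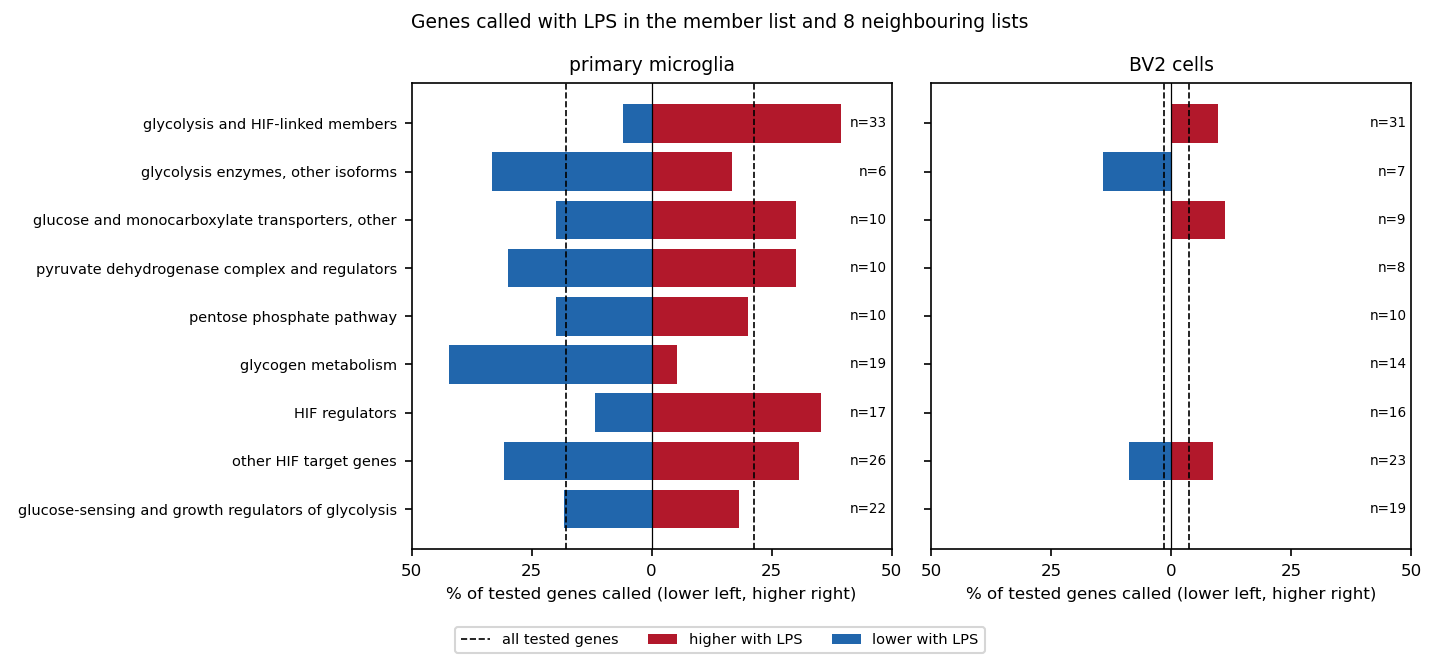
Percent of tested genes called higher (right) or lower (left) with LPS in primary microglia and in BV2 cells, for the members and 8 lists of related genes, with the share over all tested genes as dashed lines and the number tested at the right. The members reach 39.4% higher and 6.06% lower in primary microglia, and the glycogen list 5.26% higher and 42.1% lower.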

How the data were processed

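RNA of 10 samples in 4 groups was freed of ribosomal RNA, made into strand-specific libraries and read in pairs of 101 cycles, per the labels' protocols. The submitters' processing notes name CASAVA 1.8.2, Trimmomatic 0.33, STAR 2.5.1, DESeq2 and the mm10 build. The authors deposited whole-number read counts per gene symbol, with an unstranded column and 1 column for each strand, per the file layout. Of their gene annotation, a name or release was not given in the sources used here. Reverse-strand counts were used, because the opposite strand held 0.682% to 2.21% of stranded gene reads. Unmapped, multimapping, ambiguous and featureless reads made up 70.4% to 79.5% of reads and entered neither library sizes nor tests. Multimapping reads were 7.64% to 11.8%.

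Counts were tested with edgeR 4.0.16 (R 4.3.3): a robust quasi-likelihood F test after TMM scaling and filterByExpr (minimum count 10, total 15), with Benjamini-Hochberg adjustment over all tested genes and calls at 0.05. LPS responses were fitted within primary microglia (6 libraries) and within BV2 cells (4 libraries), and their difference and the comparisons of the cells in 1 fit of all 10 libraries. CPM use the TMM-scaled sizes of the libraries. A count of 0 allows up to 3 counts by counting error alone, worth 0.814 to 1.09 per M unscaled gene counts of a library. Over all libraries of a group, 3 counts are worth 0.326 to 0.481 CPM on the scaled sizes. No replicate pair agreed within sampling noise (lowest chi-square per degree of freedom, 1.57). Deviations from the group means correlated at 0.26, -0.16 and 0.29 between primary libraries of equal number, and at 0.29 between BV2 libraries of equal number, where 2 libraries a group give 1 independent value. As 1 primary pair was negative and the labels name no shared batch, numbers were not taken to pair libraries. On simulated counts the tests recovered 66.7% of 2-fold changes in primary microglia and 50% in BV2 cells, on 10533 and 9331 genes. Transcript lengths and exons are from GENCODE M21 and promoter windows from RefSeq (GRCm38.p6).

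The members, the lists and the rules were chosen with earlier results of these data known. Every member is accounted for. Values in every library are given for members called with a log2 fold change of at least 1 in either LPS comparison and for Hif1a, Egln3, Gapdh, Ldha, the 3 glucose transporters, the 3 hexokinases, Pfkfb3, Pfkfb4, Slc16a3 and Vegfa. Genes of the other lists are named when called at that size, at most 6 per list and comparison, besides Arnt, Epas1, Hif1an, Vhl, Egln1 and Egln2, and genes that make up a count of 5 or fewer were named after their values were seen. Alternatives were DESeq2 1.42.0, its size factors, no filter, unstranded counts, structural RNA genes left out, a transcript length offset, a replicate block, a fit of all libraries, and each library left out. LPS-treated primary replicate 1 as the only such library was added after seeing the data. Proteins are not used here. A few genes of the related lists are counted but not reported here by name.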

Additional observations from a re-analysis of the deposited data

Results flagged for a closer look

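The response to LPS differed between primary microglia and BV2 cells for 11 members by the interaction term of the edgeR fit, and these are listed because the difference itself was tested. Of 31 members that passed the filter in both cells, 10 had the larger response in primary microglia and 1 the smaller. Of all 8620 such genes, 11.1% and 4.42% were called in these directions. The values are the log2 fold change in primary microglia minus that in BV2 cells. Glucose transport and lactate export showed the widest gaps, with 2.91 for Slc2a6, 1.98 for Slc16a3 and 1.35 for Slc2a1. For the enzymes of upper glycolysis the value was 1.31 for Pfkl, 1.27 for Hk3, 1.12 for Pfkfb3, 1.00 for Tpi1 and 0.76 for Pfkp. Further down the pathway it was 1.07 for Ldha and 1.07 for Pgk1. Vegfa went the other way, with -0.84, and lay lower in each LPS-treated primary library than in every untreated one, while both LPS-treated BV2 libraries lay above both untreated ones. The calls of Pfkp and Vegfa are less certain, as they were lost in 10 and 8 of 18 alternatives.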

How the results depend on the processing

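In primary microglia, 13 to 16 members were called higher under all alternatives run, and in BV2 cells 2 or 3. Members called lower in primary microglia numbered 2, but 3 with the length offset, 0 with DESeq2 and 0 to 2 with 1 library left out. For the difference of responses, 9 to 13 were called higher and 1 lower, and 0 lower with DESeq2, 0 with unstranded counts and 0 to 1 with 1 library left out. Between the cells, 10 to 13 members (Slc2a3 and Ldhb counted in) were higher and 15 to 17 lower with LPS, and 7 or 8 higher and 18 to 21 lower without. With the replicate number as a block, the calls were 13 higher and 2 lower in primary microglia, 3 and 0 in BV2 cells, and 12 and 1 for the difference, where Aldoa (0.54, adjusted p = 0.0134) and Gapdh (0.53, adjusted p = 0.0219) were added. The block combined with the length offset gave 15 higher and 3 lower in primary microglia. Under the length offset, Aldoa in primary microglia against BV2 cells with LPS was 0.33 (adjusted p = 0.00957), and Mpc1 was 0.35 (adjusted p = 0.110) with LPS and 0.21 (adjusted p = 0.361) without, each on the other side of 0 from the value in the report. A change of sign with no call in either setting occurred in 102 further values of members. The cause of these shifts was not tested. Of the 5 structural RNA genes to be left out, Rn7sk has no row, and 4 were left out. In simulated counts at this depth, 50% of 2-fold changes and 94.3% of 4-fold changes were recovered in BV2 cells, so smaller changes there can be missed.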
